A study of Homo sapiens with 18 samples.

Results

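The IFIT and OAS families, antiviral effectors that interferons induce, were followed in THP-1 cells, an established human monocytic leukaemia line. The 8 members, IFIT1, IFIT2, IFIT3, IFIT5, OAS1, OAS2, OAS3 and OASL, were found by matching their symbols to the Ensembl identifiers of the deposited count table. The matching used no measured value, but the members were chosen with earlier results of these data known. They are 8 of the 63677 genes in the table, and all 8 were among the 16678 genes that passed the filter on low counts. Cells had received a short interfering RNA (siRNA) against TRAFD1 at 25 nM (KD), a non-targeting siRNA (SCR) or no siRNA (WT). At 72 h after transfection they were given medium alone (unstimulated) or lipopolysaccharide (LPS) at 10 ng/ml for 4 h. The labels differ on WT, described once as untreated cells and once as cells given the transfection mix without siRNA, so the effects of reagent and siRNA cannot be told apart where SCR is set against WT. Each of the 6 groups held 3 libraries of this single cell line, numbered 1 to 3 without and 4 to 6 with LPS. The labels do not say whether replicates came from separate cultures, so p-values measure the spread between these libraries, which may be technical.

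IFIT proteins bind viral RNA and hinder its translation: IFIT1 recognises RNA caps that lack the methylation of host mRNA, IFIT2 and IFIT3 form complexes with IFIT1, and IFIT5 binds RNA with a free 5' triphosphate. OAS1, OAS2 and OAS3 sense double-stranded RNA and make 2-5A, short oligoadenylates that act as a second messenger, whereas OASL lacks this enzymatic activity and acts on RNA sensing instead. In monocytic cells LPS reaches these genes through the receptor TLR4, the adaptor TRIF and the factor IRF3, either directly or by way of interferon beta, whose receptor activates a complex containing STAT2 and IRF9 at interferon-stimulated response elements (ISRE). TRAFD1, the target of the siRNA, is known as a negative regulator of innate immune signalling.

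In the GENCODE v44 annotation lifted to GRCh37, the IFIT genes lie side by side on the plus strand of chromosome 10. IFIT2 (ENSG00000119922) spans chr10:91043451-91069028, IFIT3 (ENSG00000119917) chr10:91087064-91137230, IFIT1 (ENSG00000185745) chr10:91152303-91166244 and IFIT5 (ENSG00000152778) chr10:91174325-91181362. The other family sits on chromosome 12, where OAS1 (ENSG00000089127, chr12:113343661-113371024), OAS3 (ENSG00000111331, chr12:113375856-113414265) and OAS2 (ENSG00000111335, chr12:113416200-113449528) follow each other on the plus strand. TRAFD1 itself (chr12:112563342-112591408) ends 752.3 kb before OAS1 begins, and OASL (ENSG00000135114, chr12:121455566-121477049) is on the minus strand 8864.2 kb beyond TRAFD1. The genes of each family are paralogues, and how reads that matched several genes were treated is not given in the sources used here. The authors counted only reads in a window of up to 500 bases at one end of each gene model, so transcripts that end elsewhere are not in these values.

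Promoters, taken from RefSeq on GRCh38.p14 as 250 bases before to 50 after the transcription start, were found for 5 of the 8 members (IFIT1, IFIT3 with 2 start sites, IFIT5, OAS1 and OAS3) and not for IFIT2, OAS2 and OASL. They are shown because interferon is known to act on these families through ISRE elements. Capitals mark matches, on either strand, to the ISRE core GAAANNGAAA, to the core TTCNNNGAA of the gamma-activated site (GAS), which reads the same on both strands, or to the NF-kB site by its common pattern.
IFIT1, chr10:89392373-89392672, plus strand: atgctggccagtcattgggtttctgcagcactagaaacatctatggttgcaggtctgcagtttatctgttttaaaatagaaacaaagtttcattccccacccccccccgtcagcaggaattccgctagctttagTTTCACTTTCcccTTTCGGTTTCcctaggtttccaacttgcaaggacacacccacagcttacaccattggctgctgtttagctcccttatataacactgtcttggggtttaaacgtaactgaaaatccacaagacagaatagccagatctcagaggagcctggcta
IFIT3, first start, chr10:89327747-89328046, plus strand: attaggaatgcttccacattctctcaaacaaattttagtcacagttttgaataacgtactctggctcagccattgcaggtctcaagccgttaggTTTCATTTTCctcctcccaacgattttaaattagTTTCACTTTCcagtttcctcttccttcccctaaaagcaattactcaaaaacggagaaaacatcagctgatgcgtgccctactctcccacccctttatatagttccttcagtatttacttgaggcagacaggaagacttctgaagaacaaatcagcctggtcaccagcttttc
IFIT3, second start, chr10:89332279-89332578, plus strand: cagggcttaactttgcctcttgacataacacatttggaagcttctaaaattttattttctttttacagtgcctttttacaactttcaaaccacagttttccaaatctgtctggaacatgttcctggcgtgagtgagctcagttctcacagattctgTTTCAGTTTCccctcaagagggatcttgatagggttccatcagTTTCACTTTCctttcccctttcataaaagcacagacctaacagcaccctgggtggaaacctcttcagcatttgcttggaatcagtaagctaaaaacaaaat
IFIT5, chr10:89414318-89414617, plus strand: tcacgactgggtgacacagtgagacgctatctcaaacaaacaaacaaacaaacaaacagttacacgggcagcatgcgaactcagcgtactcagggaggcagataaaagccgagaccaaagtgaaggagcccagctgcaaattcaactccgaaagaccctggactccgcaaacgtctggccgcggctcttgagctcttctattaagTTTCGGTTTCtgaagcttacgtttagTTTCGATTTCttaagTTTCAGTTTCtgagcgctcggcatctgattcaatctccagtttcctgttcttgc
OAS1, chr12:112906712-112907011, plus strand: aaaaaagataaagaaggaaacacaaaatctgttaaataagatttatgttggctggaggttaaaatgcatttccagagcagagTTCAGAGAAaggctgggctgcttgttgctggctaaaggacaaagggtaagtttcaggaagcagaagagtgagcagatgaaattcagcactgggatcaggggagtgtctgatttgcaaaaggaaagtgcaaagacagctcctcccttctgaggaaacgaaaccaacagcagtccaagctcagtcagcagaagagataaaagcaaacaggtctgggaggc
OAS3, chr12:112938224-112938523, plus strand: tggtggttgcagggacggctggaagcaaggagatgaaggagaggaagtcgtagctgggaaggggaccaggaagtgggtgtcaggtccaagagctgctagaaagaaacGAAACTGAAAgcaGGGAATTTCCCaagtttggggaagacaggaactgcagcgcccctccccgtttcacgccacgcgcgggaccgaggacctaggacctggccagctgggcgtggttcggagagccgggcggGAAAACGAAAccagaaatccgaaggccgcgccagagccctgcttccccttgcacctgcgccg

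The ISRE core was present in 5 of the 6 promoters, against 3.57% of all 35116 RefSeq promoters of the same length. IFIT1 held a pair of matches beginning 116 and 103 bases before the start, both on the opposite strand. The 2 IFIT3 starts had matches beginning 156 and 122, and 94 and 51, bases upstream, and IFIT5 had 3, at 45, 19 and 4 bases. In OAS3 the matches began 143 and 12 bases upstream on the gene's own strand. Its NF-kB pattern, present in 11.3% of all promoters, matched at 130 bases on one strand and overlapped a match at 129 bases on the other. OAS1 was the promoter without a match to this fixed core, which misses elements of another spacing. Its window holds gaaacgaaa, left in lower case, where the GAAA repeats lie closer together than in the core. Thus the search does not say that OAS1 lacks an ISRE. The capitals in OAS1 mark the GAS core at 168 bases, a pattern held by 7.66% of all promoters. These matches describe letters within the windows and were not tested as binding sites.

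Total counts ran from 8206023 to 22344279 per library, and levels are given in CPM, counts scaled to library size with TMM factors (edgeR's cpm), comparable between libraries and not between genes. A count of 0 would allow up to 3 counts, or 0.133 to 0.378 CPM, which covers counting error only. Members held between 171 and 8329 counts in every library. Of 10 monocytic markers 1, FCN1, had no count in any group. Summed markers were at most 0.616 CPM for T cells, 0.126 CPM for erythroid and 0.403 CPM for epithelial cells, 1.74 to 4.28 CPM for B cells and 0.604 to 2.94 CPM for fibroblasts. TRAFD1 was at 20.5 ± 1.99 CPM in WT, 23.7 ± 3.38 in SCR and 8.67 ± 3.14 in KD without LPS (SD, n = 3), and KD was lower than both controls by edgeR's test (log2 fold change -1.45 ± 0.23 against SCR, SE, adjusted p = 0.0277, and -1.23 ± 0.23 against WT, adjusted p = 0.0016). Leaving out SCR unstimulated replicate 1 or 3, or KD unstimulated replicate 2, ended the first of these calls, as did a fit on the groups compared alone. With LPS it was at 17.0 ± 4.76, 22.7 ± 4.42 and 14.5 ± 1.12 CPM, and neither difference of KD passed edgeR's test, while the rise of TRAFD1 with LPS in KD did (0.73 ± 0.23, adjusted p = 0.046). All 5 genes used to check LPS (TNF, IL1B, CXCL8, CXCL10 and NFKBIA) rose with LPS under all 3 conditions, and 3 of them were also higher than WT in unstimulated SCR and in unstimulated KD. For CXCL10 the rise in WT was from 2.26 ± 1.61 to 304 ± 14.6 CPM.

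The first question was how the members responded to LPS in each condition. In WT and in SCR the same 6 genes rose, all 4 IFIT members with OAS3 and OASL, while neither OAS1 nor OAS2 passed the test. In KD 3 rose, IFIT2, IFIT3 and OAS3. All rises were below 2-fold, the largest being that of OASL in WT (1.90-fold) and in SCR (1.77-fold). A gene was called where edgeR's quasi-likelihood test gave a Benjamini-Hochberg adjusted p below 0.05 over all genes tested. The background of such calls in the higher direction was 7.01% of genes in WT, 8.64% in SCR and 6.41% in KD. Library values of the stimulation states did not overlap for 6 members in WT, 7 in SCR and 6 in KD. This held for 32.55%, 37.25% and 25.43% of all genes, in either direction. OAS2 was among these members in SCR and KD, with lower values on LPS. The median log2 fold change of the 8 members was 0.48 in WT, 0.57 in SCR and 0.34 in KD, beside -0.03, -0.03 and -0.0029 for all genes tested. Over all genes, 1169 were called higher and 1211 lower in WT, 1441 and 1428 in SCR, and 1069 and 843 in KD. Scaling by library totals alone turned these into 948 and 1566, 1214 and 1844, and 855 and 1187, with a shift of the median by at most 0.062 on the log2 scale.

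IFIT2, which joins the IFIT1 and IFIT3 complex, was at 65.9, 66.6 and 61.0 CPM in the WT libraries without LPS and at 98.2, 119 and 101 CPM with LPS. SCR gave 75.4, 75.8 and 81.4 CPM before and 146, 118 and 105 CPM after LPS. In KD it was at 129, 110.4 and 92.2 CPM without and 157, 175 and 134 CPM with LPS. No library with LPS was as low as any without it in the same condition, yet all 3 unstimulated KD libraries were above all unstimulated libraries of WT and SCR. The log2 fold changes on LPS were 0.72 ± 0.13 in WT (SE, adjusted p = 0.00062), 0.66 ± 0.13 in SCR (adjusted p = 0.0015) and 0.49 ± 0.13 in KD (adjusted p = 0.018). Ordered by level, the groups ran from unstimulated WT (64.5 ± 3.03 CPM, SD) and SCR (77.5 ± 3.36), which did not overlap, to WT with LPS (106 ± 11.3), unstimulated KD (111 ± 18.5), SCR with LPS (123 ± 20.7) and KD with LPS (155 ± 20.5), where each neighbour overlapped the next.

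IFIT3, the partner that stabilises IFIT1, was at 362, 254 and 332 CPM in WT without LPS and at 587, 513 and 544 CPM with it. In SCR the values went from 339, 269 and 287 CPM to 544, 411 and 486 CPM. KD libraries stood at 306, 387 and 278 CPM unstimulated and at 458, 452 and 468 CPM with LPS. The unstimulated groups overlapped each other and lay below every LPS library, with a rise of 0.79 ± 0.13 in WT (log2, SE, adjusted p = 0.00021), 0.69 ± 0.13 in SCR (adjusted p = 0.0011) and 0.51 ± 0.13 in KD (adjusted p = 0.016).

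IFIT1, the cap-binding member, was at 225, 235 and 207 CPM in unstimulated WT and 302, 290.2 and 284 CPM with LPS. SCR held 193, 198 and 204 CPM without and 319, 242 and 267 CPM with LPS. Levels in KD were 233, 228 and 229.8 CPM, then 295, 247 and 262 CPM. Libraries with LPS were above those without in each condition, but the rise in KD, 0.22 ± 0.09 (log2, SE), did not pass the test (adjusted p = 0.15), against 0.39 ± 0.10 in WT (adjusted p = 0.0065) and 0.48 ± 0.10 in SCR (adjusted p = 0.0015).

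IFIT5, which binds triphosphate RNA, was measured at a lower count, from 358 to 809 per library. In WT it was at 37.0, 33.7 and 30.3 CPM without and 46.6, 47.9 and 40.2 CPM with LPS, and in SCR at 28.8, 32.7 and 37.7 CPM and then 51.5, 41.4 and 42.6 CPM. KD had 31.8, 32.3 and 29.8 CPM before and 35.0, 48.5 and 39.2 CPM after LPS. The stimulation states were apart in each condition, and all neighbours among the 6 groups, ordered by mean, overlapped. The 3 rises were 0.42 ± 0.14 (log2, SE, adjusted p = 0.044), 0.45 ± 0.14 (adjusted p = 0.028) and 0.39 ± 0.14 (adjusted p = 0.0696). The call in WT was lost without WT unstimulated replicate 2 or 3 or WT LPS replicate 4 or 5. That in SCR was lost without SCR unstimulated replicate 1 or 2 or SCR LPS replicate 4. Library totals alone also ended both calls (edgeR adjusted p = 0.087 in WT and 0.055 in SCR). Testing without the filter ended the call in WT (edgeR adjusted p = 0.068). The one in KD was gained without KD LPS replicate 4. Adjusted p ran from 0.019 to 0.18 in WT, from 0.014 to 0.15 in SCR and from 0.043 to 0.36 in KD over the 12 alternatives of each.

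Among the OAS genes, OAS3, the family's largest enzyme, was at 263, 251 and 247 CPM in unstimulated WT and 414, 339 and 355 CPM with LPS. In SCR it was at 250.2, 256 and 244 CPM and then at 480.3, 368 and 373 CPM. KD libraries started at 346, 379.8 and 302 CPM and reached 464, 499.8 and 458 CPM. As for IFIT2, unstimulated KD stood above both unstimulated controls without overlap and overlapped WT with LPS. LPS raised OAS3 by 0.54 ± 0.10 in WT (log2, SE, adjusted p = 0.00098), 0.70 ± 0.11 in SCR (adjusted p = 8.0e-05) and 0.47 ± 0.10 in KD (adjusted p = 0.0051).

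OASL, the member without 2-5A synthesis, had the fewest counts, 171 to 437 per library. Unstimulated WT held 14.5, 15.5 and 18.3 CPM, and WT with LPS 31.3, 31.2 and 29.8 CPM. In SCR, 17.2, 16.7 and 18.1 CPM became 37.5, 24.3 and 31.0 CPM. KD showed 22.2, 26.3 and 18.7 CPM without LPS and 29.2, 25.4 and 28.1 CPM with it, and these were the ranges that overlapped between the stimulation states. The rise was 0.93 ± 0.15 in WT (log2, SE, adjusted p = 0.00018) and 0.83 ± 0.15 in SCR (adjusted p = 0.00072), whereas the difference in KD, 0.30 ± 0.15, did not pass the test (adjusted p = 0.22).

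OAS1 stayed between 138 and 199 CPM and OAS2 between 274 and 366 CPM over all 18 libraries. OAS1 averaged 156 ± 18.9 CPM in WT, 157 ± 9.82 in SCR and 182 ± 15.0 in KD without LPS (SD, n = 3), and 162 ± 7.12, 161 ± 16.4 and 184 ± 9.0 CPM with it, so that KD had the highest mean in either state. For OAS2 the means were 339.8 ± 22.5, 332 ± 13.8 and 329 ± 21.8 CPM unstimulated and 324 ± 8.66, 287 ± 12.3 and 287 ± 1.76 CPM with LPS. The LPS difference of OAS1 was 0.06 ± 0.10 in WT, 0.04 ± 0.10 in SCR and 0.0085 ± 0.10 in KD (log2, SE). Adjusted p was 0.78, 0.85 and 0.97, and the sign turned under library totals alone in all 3 conditions. For OAS2 the difference was -0.07 ± 0.08, -0.21 ± 0.08 and -0.19 ± 0.08 (adjusted p = 0.63, 0.0702 and 0.11). Library totals alone took the OAS2 differences in SCR and KD past the threshold, at -0.27 (adjusted p = 0.023) and -0.26 (adjusted p = 0.0400), with ranges over the 12 alternatives of 0.023 to 0.32 and 0.0400 to 0.37.

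One library, SCR LPS replicate 4, held the highest value of its group for 8 of 8 members. The share of all genes highest in that library is not given here, so this may not be particular to the members. The same library had the fewest counts of all libraries, 8206023, and the highest share of mitochondrial counts, 5.20%. Without it 5 members rose in SCR, IFIT5 being lost, and the log2 rises were 0.36 for IFIT1, 0.53 for IFIT2, 0.59 for IFIT3, 0.57 for OAS3 and 0.68 for OASL. In KD, the 3 calls became 1, OAS3, without KD unstimulated replicate 3. IFIT2 also lost its call there without KD LPS replicate 5 or with edgeR on the groups compared (adjusted p = 0.081), and IFIT3 without KD LPS replicate 6. The mitochondrial share of counts was higher with LPS, without overlap in WT and SCR and with overlap in KD. It was 3.19% to 3.37% in WT, 3.28% to 3.47% in SCR and 3.87% to 4.86% in KD without LPS, against 3.82% to 4.46%, 3.72% to 5.20% and 4.28% to 5.14% with LPS. Its part in these results was not tested.

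**Figure D1:**
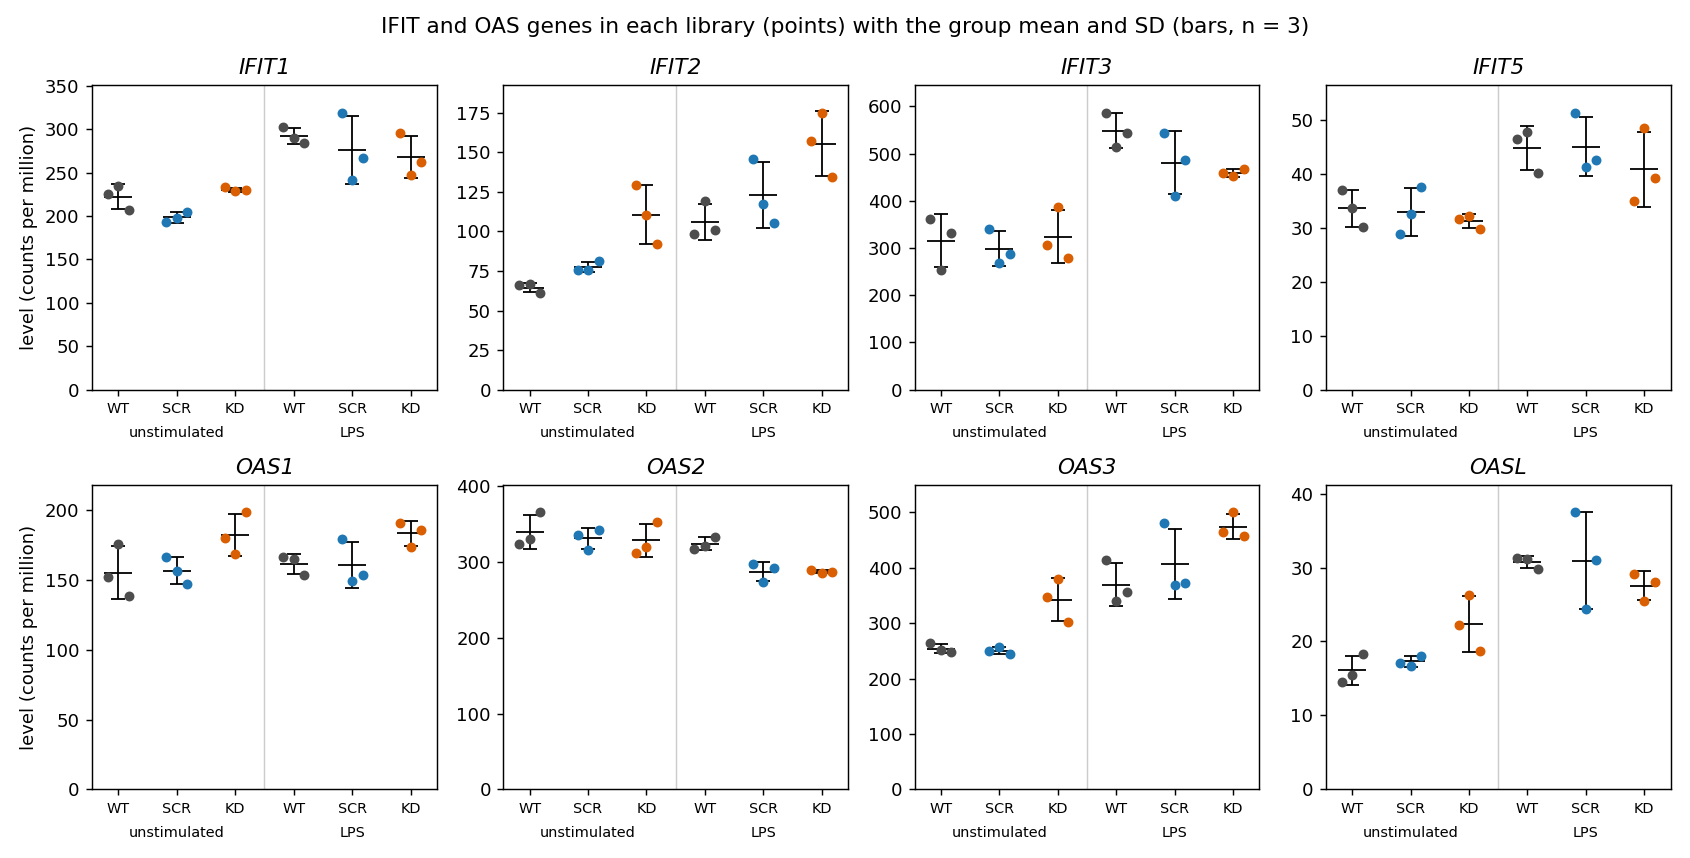
Level of each member in CPM (y axis, from 0) in the 6 groups (x axis), with 1 point per library and bars for the group mean and SD (n = 3). IFIT2 and OAS3 in unstimulated KD lie above both unstimulated controls, from 92.2 CPM and 302 CPM upwards, and OAS1 and OAS2 stay within 138 to 199 CPM and 274 to 366 CPM.

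**Figure D2:**
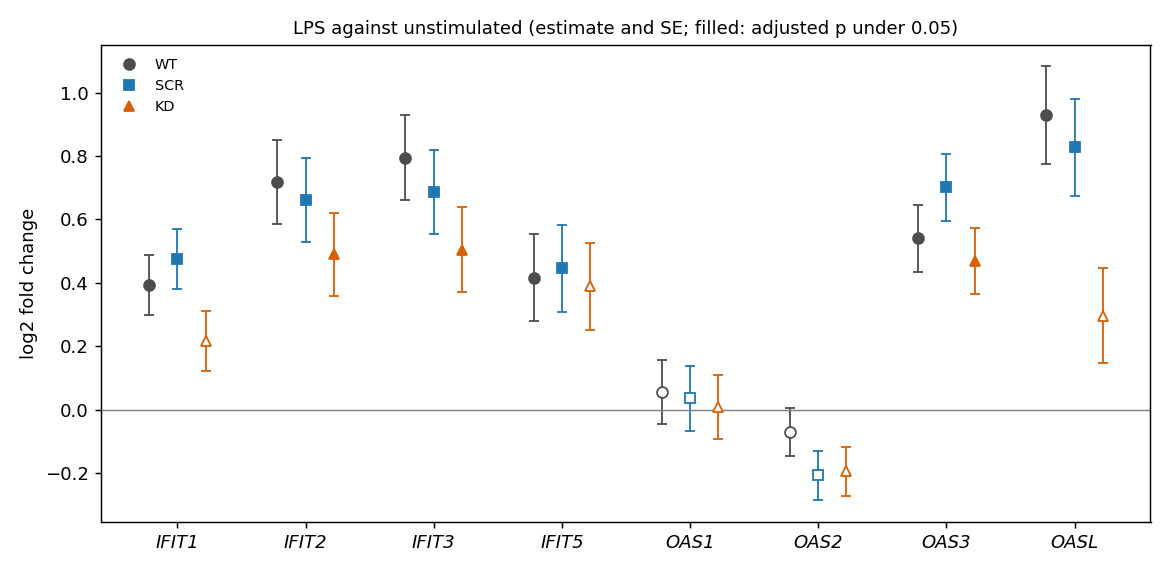
Log2 fold change on LPS (y axis) of each member in WT, SCR and KD, with bars for the SE and filled symbols for an adjusted p below 0.05. WT and SCR each show 6 filled symbols and KD shows 3, and OAS1 lies near 0 throughout.

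Whether the LPS response itself differed between conditions was tested with interaction contrasts. No member passed, 0 of 8 in each of SCR against WT, KD against SCR and KD against WT, where edgeR called 0.234%, 0% and 0.360% of all genes tested. At an unadjusted p below 0.05 there were 0, 1 and 1 members, OASL in both cases, against 9.96%, 7.64% and 15.5% of genes. DESeq2 on all libraries also called 0 members, against 0.510%, 0.0180% and 2.98%, where shares for DESeq2 are of the genes it gave an adjusted p (16677, 16677 and 9241 here). The response of OASL in KD minus that in SCR was -0.53 ± 0.21 (log2, SE, adjusted p = 0.61), and minus that in WT -0.63 ± 0.21 (adjusted p = 0.19). The median difference over the 8 members was -0.04, -0.18 and -0.15 in the 3 contrasts, beside 0.0090, 0.03 and 0.02 for all genes. Beside the 6, 6 and 3 members called on LPS, no response of a member was thus shown to differ between conditions.

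The control comparison, SCR against WT, asked how the members differed between cells with the non-targeting siRNA and cells without siRNA. Effects of reagent and siRNA cannot be told apart in it. No member differed by edgeR, 0 of 8 unstimulated and 0 of 8 with LPS, where 3.23% and 0.114% of all genes were called. At an unadjusted p below 0.05 there were 0 members unstimulated (17.2% of genes) and 1 with LPS, OAS2 (13.7% of genes). DESeq2 on all libraries called 0 and 0 (6.45% of 14413 and 2.12% of 9241 genes). IFIT2 and IFIT1 had unstimulated SCR libraries apart from WT in opposite directions, at 0.27 ± 0.13 and -0.16 ± 0.10 (log2, SE, adjusted p = 0.31 and 0.399). These were the 2 of 8 members apart, where 22.6% of all genes were apart in either direction. OAS2 with LPS was at 297, 274 and 292 CPM in SCR and 317, 322 and 333 CPM in WT, a difference of -0.17 ± 0.08 (adjusted p = 0.33). OAS2 was the 1 member apart with LPS, where 22.8% of all genes were.

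The comparison of KD with SCR addressed the siRNA against TRAFD1 over its own control. Without LPS 0 of 8 members passed edgeR's test, where 0.0660% of all genes did. At an unadjusted p below 0.05 there were 5 of 8 (12.6% of genes), IFIT1, IFIT2, OAS1, OAS3 and OASL. The same 5 had every KD library above every SCR library, against 6.45% of genes apart in this direction. DESeq2 on all libraries called 2 of 8, IFIT2 and OAS3, against 1.68% of 14413 genes. OAS3 was 0.45 ± 0.10 higher (log2, SE, adjusted p = 0.0802 by edgeR, 0.0047 to 0.24 over 13 alternatives) and IFIT2 0.51 ± 0.13 higher (adjusted p = 0.096, 0.0061 to 0.33), both short of the threshold in edgeR's fit. OASL differed by 0.37 ± 0.15 (adjusted p = 0.31), OAS1 by 0.22 ± 0.10 (adjusted p = 0.37) and IFIT1 by 0.22 ± 0.10 (adjusted p = 0.35). Levels of IFIT3, IFIT5 and OAS2 overlapped between the groups. The mitochondrial share of unstimulated KD, 3.87% to 4.86%, was also apart from that of SCR, and its part was not tested. The call of TRAFD1 in the same contrast rested on 3 single libraries as given above.

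With LPS, KD and SCR overlapped for all 8 members, where 21.5% of all genes were apart in either direction. EdgeR called 0 of 8 and 0% of all genes, and DESeq2 on all libraries called 0 members against 3.01% of the 4714 genes it gave an adjusted p. At an unadjusted p below 0.05 stood IFIT2 and OAS3, 2 of 8 against 11.8% of genes. IFIT2 was 0.34 ± 0.13 higher in KD (log2, SE, adjusted p = 0.31) and OAS3 0.22 ± 0.10 (adjusted p = 0.42). TRAFD1 was itself lower in each KD library than in each SCR library under LPS, at -0.65 ± 0.22 (adjusted p = 0.26). It was called when no genes were filtered out (adjusted p = 0.028) and by DESeq2 on the groups compared (adjusted p = 0.017).

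Against WT, 3 members were higher in KD without LPS, IFIT2, OAS3 and OASL, where 5.85% of all genes were called higher. IFIT2 was higher by 0.78 ± 0.13 (log2, SE, adjusted p = 0.00074), 1.72-fold. OAS3 rose by 0.43 ± 0.10 (adjusted p = 0.0101) and OASL by 0.47 ± 0.15 (adjusted p = 0.049), and OAS1 at 0.23 ± 0.10 did not pass (adjusted p = 0.15). Without WT unstimulated replicate 3 only the IFIT2 call was left. OASL lost its call without any 1 of 5 libraries (WT unstimulated replicates 1, 2 and 3, KD unstimulated replicates 1 and 2). It was also lost with library totals alone, without the filter, and with DESeq2 or edgeR on the groups compared. These were 9 of 13 alternatives, over which its adjusted p ran from 0.028 to 0.19. The same KD libraries enter the comparison with SCR, so these are not independent comparisons. Mitochondrial shares did not overlap between these groups either.

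With LPS, 2 members were higher in KD than in WT, IFIT2 by 0.55 ± 0.13 (log2, SE, adjusted p = 0.012) and OAS3 by 0.36 ± 0.10 (adjusted p = 0.031), where 6.29% of genes were called higher. None of the 8 was called lower by edgeR over all libraries, where 4.55% of genes were. IFIT3 and OAS2 had lower levels in every KD library, at -0.25 ± 0.13 (adjusted p = 0.23) and -0.17 ± 0.08 (adjusted p = 0.15). DESeq2 on the groups compared called both lower (adjusted p = 0.0030 and 0.047), and edgeR on those groups called IFIT3 lower (adjusted p = 0.0083). OASL was apart in the same direction at -0.16 ± 0.15 (adjusted p = 0.54), and OAS1 in the other at 0.18 ± 0.10 (adjusted p = 0.26). With IFIT2 and OAS3, 6 of 8 members were apart, where 35.0% of all genes were apart in either direction. The 2 calls of IFIT2 and OAS3 depended on single libraries. Leaving out WT LPS replicate 6 or KD LPS replicate 5 left 0, and leaving out any 1 of WT LPS replicates 4 and 5 or KD LPS replicates 4 and 6 left 1.

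**Figure D3:**
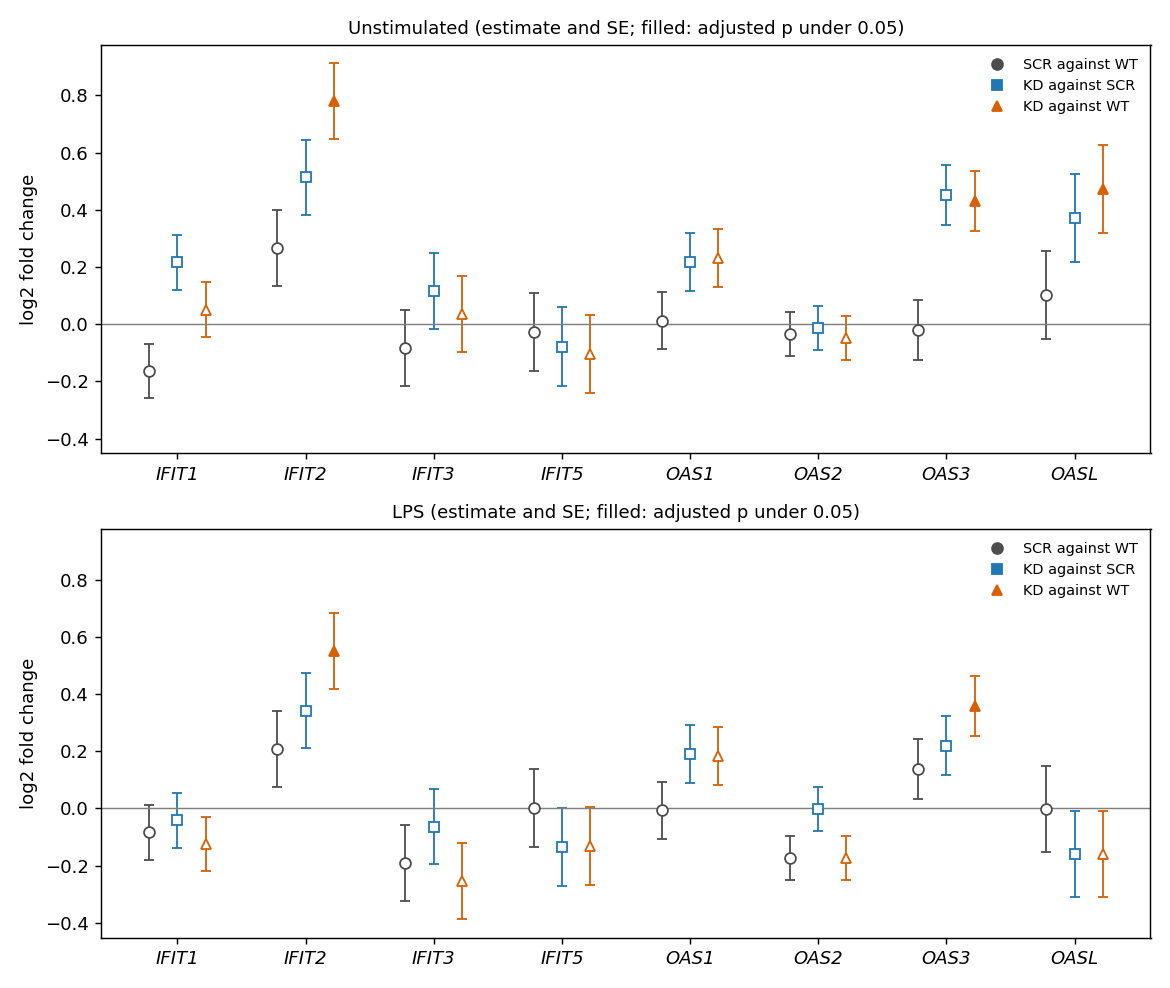
Log2 fold change (y axis) of each member between conditions, unstimulated above and with LPS below, with bars for the SE and filled symbols for an adjusted p below 0.05. Filled symbols are IFIT2, OAS3 and OASL in KD against WT unstimulated and IFIT2 and OAS3 with LPS, and 0 members are filled against SCR or for SCR against WT.

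The members did not all move together over the 18 libraries. Pearson's r of log2 CPM, which includes the step between stimulation states and shared library depth, was highest for IFIT2 with OAS3 (0.92) and lowest for OAS2 with OAS3 (-0.75). IFIT3 and OASL reached 0.88 and IFIT1 and OASL 0.87, while OAS1 and OAS2 gave -0.24. After subtraction of group means, IFIT2 with OAS3 was at 0.49 and OAS2 with OAS3 at -0.24. The genes most like the mean of the IFIT members were HSP90AA1 and HSPA8, cytosolic heat shock chaperones (r = 0.95 each), MYO10, a myosin of cell protrusions, GCLM, a subunit of glutathione synthesis (0.94 each), and EIF5, a translation initiation factor (0.94). For the OAS mean they were MTCO1P40, a copy of a mitochondrial gene (0.89), NCDN (0.88), the ubiquitin-activating enzyme UBA1 (0.87), CD4 (0.87) and RPL6P27, a ribosomal pseudogene (0.87). That mean joins members that ran in opposite directions, such as OAS2 and OAS3, so these genes need not be like any single OAS member. The 2 pseudogenes may share reads with their parent genes and are uncertain.

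Upstream of the members, the interferon genes themselves were scarcely detected. Of 10 ligand genes 2 were tested, IFNB1 and IFNL1. IFNB1, interferon beta, averaged 0.628 ± 0.582 CPM in unstimulated WT and 0.803 ± 0.522 CPM with LPS. The means were 0.854 ± 0.147 and 2.56 ± 1.99 CPM in SCR and 1.44 ± 1.57 and 2.46 ± 0.996 CPM in KD, and no contrast of IFNB1 was called. IFNL1, a type III interferon, was called higher with LPS in WT, where its mean was 1.47 ± 0.746 CPM unstimulated and 3.85 ± 0.772 CPM with LPS, and in unstimulated KD against WT, at 4.02 ± 0.969 CPM. On LPS it was not called in SCR or KD, at -0.16 ± 0.36 and -0.40 ± 0.35 (log2, SE, edgeR adjusted p = 0.82 and 0.50).

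Among the 9 tested transcription factors, 1 was called higher with LPS in WT, 2 in SCR and 1 in KD, with 0 lower. STAT2 stayed between group means of 98.7 and 126 CPM and IRF7, which drives interferon genes, between 96.2 and 108 CPM. Neither was called in an LPS response. IRF9, which gives the STAT2 complex its DNA binding, was low, from 3.21 ± 1.59 to 6.51 ± 1.60 CPM in WT, and was not called. IRF1 rose with LPS in each condition, by 0.70 ± 0.10 in WT (log2, SE, adjusted p = 4.1e-05), 0.43 ± 0.10 in SCR (adjusted p = 0.0055) and 0.41 ± 0.10 in KD (adjusted p = 0.012). In KD with LPS its log2 fold change against WT was -0.56 ± 0.10 (adjusted p = 0.0029), with STAT2 at -0.30 ± 0.10 (adjusted p = 0.046) and IRF8 at 1.32 ± 0.38 (adjusted p = 0.031) also called there. Of 8 receptors and kinases, 2 rose in WT, 3 in SCR and 1 in KD, led in each by IFNGR2, a chain of the interferon gamma receptor, with rises of 1.23, 0.96 and 1.08 on the log2 scale (adjusted p = 3.1e-10, 2.5e-08 and 5.5e-09).

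Among 13 tested genes of nucleic acid sensing, 3 rose and 2 fell in WT, 4 and 2 in SCR, and 6 and 1 in KD. EIF2AK2, the double-stranded RNA kinase PKR, rose by 0.58 ± 0.11 in SCR (log2, SE, adjusted p = 0.0012) and 0.60 ± 0.11 in KD (adjusted p = 0.0013), and was at 0.21 ± 0.11 in WT (adjusted p = 0.24). USP18, which restrains the interferon receptor, was at 296 ± 19.1 CPM in unstimulated WT and 373 ± 32.0 CPM with LPS, and was the feedback gene called there, 1 of 4. In SCR and KD 2 of 4 rose, SOCS1 and SOCS3, inhibitors of JAK kinases. USP18 itself was not called on LPS in SCR or KD, at 349.7 ± 68.0 and 346 ± 11.5 CPM in SCR and 263 ± 22.9 and 318 ± 12.1 CPM in KD.

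Of 30 other interferon-stimulated genes, all tested, 11 rose and 0 fell with LPS in WT, 8 and 2 in SCR, and 8 and 1 in KD. Their median log2 fold change was 0.15, 0.22 and 0.23. PARP14, an ADP-ribosyltransferase, rose by 0.32 ± 0.08 in WT (log2, SE, adjusted p = 0.0059), 0.50 ± 0.08 in SCR (adjusted p = 0.00012) and 0.41 ± 0.08 in KD (adjusted p = 0.0012). The helicase DDX60 likewise rose by 0.396 ± 0.11, 0.69 ± 0.11 and 0.34 ± 0.11 (adjusted p = 0.016, 0.00014 and 0.049). ISG20, an exonuclease, rose in WT by 0.85 ± 0.09 (adjusted p = 9.1e-07), and gave 0.24 ± 0.09 in SCR and 0.25 ± 0.09 in KD (adjusted p = 0.075 and 0.084). Between conditions the list was mixed. KD against WT had 4 higher and 4 lower without LPS, and 5 and 7 with LPS. Higher without LPS were LY6E by 0.83 ± 0.17, IFI35 by 0.67 ± 0.14, ISG20 by 0.50 ± 0.09 and ISG15, also on the feedback list, by 0.44 ± 0.14 (adjusted p = 0.0026, 0.0029, 0.0014 and 0.048). The first 3 of these calls were lost with edgeR on the groups compared (adjusted p = 0.073, 0.063 and 0.057). Lower, with their log2 fold changes, were DTX3L at -0.39 ± 0.09, SP110 at -0.35 ± 0.10, CMPK2 at -0.33 ± 0.08 and PARP14 at -0.29 ± 0.08 (adjusted p = 0.0056, 0.034, 0.0092 and 0.017). With LPS the log2 fold changes of DTX3L and CMPK2 were -0.56 ± 0.09 and -0.44 ± 0.08 (adjusted p = 0.0010 and 0.0029), the smallest adjusted p of the list there. The 5 called higher with LPS had larger adjusted p and are not listed. SCR against WT called 2 unstimulated, ISG20 by 0.42 ± 0.09 and LY6E by 0.72 ± 0.17 (adjusted p = 0.015 and 0.021), both lost without SCR unstimulated replicate 1 or 3 or WT unstimulated replicate 1, and LY6E also without WT unstimulated replicate 3. KD against SCR called 0 of 30 in either state.

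**Figure D4:**
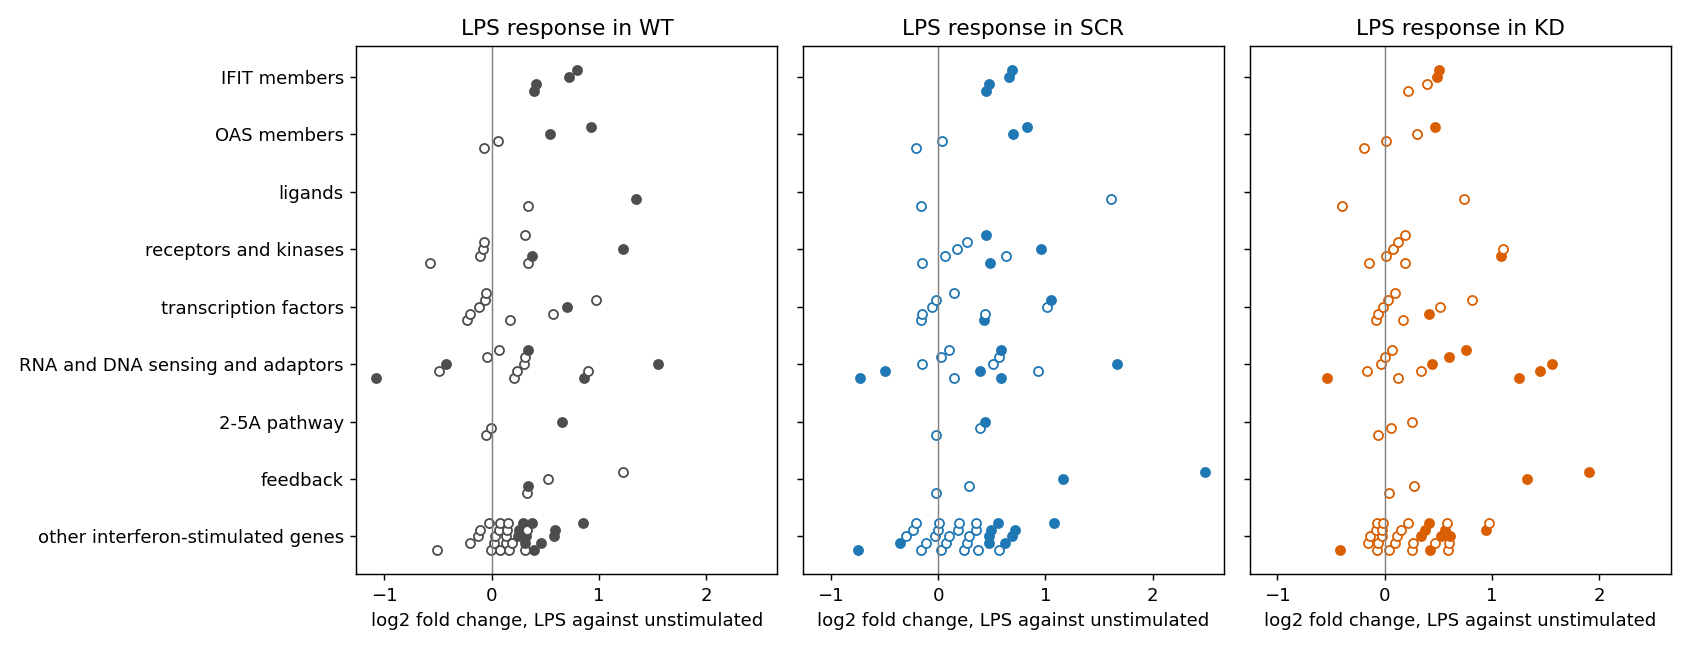
Log2 fold change on LPS (x axis) of every tested gene of each list (rows) in WT, SCR and KD, with 1 point per gene and filled points for an adjusted p below 0.05. Of the other interferon-stimulated genes 11, 8 and 8 are filled above 0, and the IFIT members lie above 0 in all 3 panels.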

How the data were processed

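RNA of 18 THP-1 libraries was prepared with QuantSeq, which reads the 3' end of polyadenylated RNA. Per the labels and methods, the authors aligned reads with HISAT to GRCh37 (Ensembl 75), counted them per gene with featureCounts on models limited to 500 bases, and deposited raw counts. 0 columns were left out. Members, lists and tests were chosen with earlier results of these data known. Groups came from the sample titles. Counts were filtered with filterByExpr by group and fitted in 1 model over 18 libraries with edgeR 4.0.16 (TMM, quasi-likelihood F test, R 4.3.3), adjusted by Benjamini-Hochberg over 16678 genes. SEs were derived from the log2 fold change and F. Scripts were tested on simulated data. Alternatives were RLE factors, library totals, no filter, DESeq2 1.42.0, fits on the groups compared, a replicate block and each library left out. Text names the 8 members, TRAFD1, 5 LPS check genes, IFNB1, IRF9, STAT2, IRF7, USP18, up to 3 called list genes per contrast, and 5 likeness genes per family. IFNL1, SOCS1, SOCS3, ISG15, IRF8 and SP110 were named after their values were seen, and 3 older symbols were matched through RefSeq synonyms. Some genes of the lists are not reported here. No 2 libraries of a group agreed within sampling noise. In SCR against WT with LPS, same-numbered libraries deviated together (correlations of 0.163 to 0.261). The main test did not pair them. The replicate block, an alternative that does, left 0 members called there.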

Additional observations from a re-analysis of the deposited data

Results flagged for a closer look

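No member's LPS response differed between conditions by edgeR's interaction test, but those of 4 other listed genes did. The exonuclease ISG20, an interferon-stimulated gene outside the 2 families, rose less in KD than in WT, with a difference of -0.60 ± 0.13 (log2, SE, edgeR adjusted p = 0.047). Its response in SCR, 0.24 ± 0.09, was close to the 0.25 ± 0.09 in KD and below the 0.85 ± 0.09 in WT, and SCR minus WT gave -0.61 ± 0.13 (adjusted p = 0.057). The level went from 56.3 ± 2.52 to 102 ± 7.24 CPM in WT, from 75.5 ± 1.01 to 89.4 ± 5.02 CPM in SCR and from 79.9 ± 6.04 to 95.1 ± 6.11 CPM in KD (SD, n = 3). The call was lost in 12 of 19 alternatives, among them 10 that leave out 1 library. Of the LPS check genes, TNF rose less than in WT both in KD (difference -1.76 ± 0.21, edgeR adjusted p = 0.00010) and in SCR (-1.42 ± 0.21, adjusted p = 0.0021). In SCR this also held for CXCL10 (-2.08 ± 0.35, adjusted p = 0.0074) and NFKBIA (-0.63 ± 0.12, adjusted p = 0.033). With LPS, however, SCR minus WT was 0.03 for TNF, -0.18 for CXCL10 and -0.0012 for NFKBIA (log2, edgeR adjusted p = 0.95, 0.73 and 0.998). For TNF, KD minus WT with LPS was -0.30 (adjusted p = 0.18). Of the 5 check genes, 3 were higher than WT in unstimulated SCR and 3 in unstimulated KD, so these differences include the unstimulated levels.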

How the results depend on the processing

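Of 586 alternative values for 46 single-member differences, 527 kept direction and side of the threshold. With 0 calls in KD against SCR without LPS, no filter, DESeq2 on all libraries and the replicate block each gave 2, and DESeq2 on the groups compared gave 1. Over all genes the main fit called 4 higher and 7 lower of 16678 there. No filter gave 155 and 165 of 34092, and DESeq2 on all libraries 107 and 135 of 14413. The replicate block gave 75 and 108 of 16678, and DESeq2 on the groups compared 55 and 31 of 28703. KD against WT gave 1 in place of 3 without LPS with edgeR on the groups compared, and 4 in place of 2 with LPS with DESeq2 on the groups compared, the 2 gained calls, IFIT3 and OAS2, being lower in KD. Over all genes, the former called 173 higher and 107 lower of 15493, against 975 and 976 of 16678 in the main fit. The latter called 1604 and 1345 of 29165, against 1049 and 759 of 16678. Leaving out each library moved the member counts between 1 and 4 for LPS in KD, 1 and 3 for KD against WT without LPS, and 0 and 1 with LPS. The cause was not tested. OAS1 turned sign on LPS, to -0.0099 (RLE factors), -0.0100 (DESeq2 on all libraries) and -0.053 (library totals) in KD, and with library totals to -0.0073 in WT and -0.025 in SCR. Leaving out each library gave -0.022 to 0.15 in WT, -0.044 to 0.088 in SCR and -0.043 to 0.074 in KD. Outside SCR against WT with LPS, correlations of same-numbered libraries ran from -0.087 to 0.30, the highest for replicate 1 in KD against WT without LPS. Whether the numbers mark batches is not given in the labels. The replicate block changed 2 member calls, IFIT2 and OAS3 in KD against SCR without LPS (edgeR adjusted p = 0.044 and 0.029), and 0 in the other contrasts. OASL and IFIT5, with 171 to 809 counts per library, are the least deeply counted members.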
